A study of Gloeophyllum trabeum and Trametes versicolor with 18 samples.

Results

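In the white-rot fungus *Trametes versicolor*, 42 of 15606 transcripts stood higher on low-melanin fungal necromass than on glucose and, at the same time, lower on high-melanin fungal necromass than on glucose. They were chosen by their TPM, a measure of abundance that divides each transcript's reads by its effective length and scales every library to the same sum. With 1 added to each group mean, the low-melanin level had to be at least 1.5 times the glucose level and at least 6, and the glucose level at least 1.5 times the high-melanin level. In addition, the lowest low-melanin library had to exceed the highest glucose library, and the lowest glucose library the highest high-melanin library. All 3 contrasts between the carbon sources therefore chose the transcripts, so their differences between carbon sources are given below as a description, with no test.

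The study grew *T. versicolor* strain A1-ATF and a second wood-decay fungus, *Gloeophyllum trabeum*, in liquid culture and measured their transcripts by RNA sequencing, and the 2 fungi together have 27486 transcripts in the tables. The *T. versicolor* libraries came from fungal biomass after 7 days, and all groups shared Highley's medium, a mineral medium. Of the 9 libraries, 3 had 1% (w/v) glucose, 3 had 0.45% (w/v) low-melanin necromass and 3 had 0.45% high-melanin necromass, so the carbon sources differed in concentration as well as in kind. Necromass is the remains of dead fungi, and fungal melanins are dark polymers of phenolic units laid down in the wall. Nothing in the labels tells separate cultures from repeated libraries, so the spread within a group may be partly technical. The values are shares of each library's RNA, so less of a transcript and more of the other RNA cannot be told apart, and the same holds for fewer cells that make it and less of it per cell.

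White-rot fungi break down lignin with secreted laccases and peroxidases, enzymes that also oxidise other phenolic polymers. Fungal cell walls, the bulk of necromass, consist mainly of chitin, glucans and mannoproteins, which are opened by secreted chitinases, glucanases and peptidases. In many fungi glucose represses genes for the use of other carbon sources, a control known as carbon catabolite repression. Genes under it are lower on glucose than without it. The files do not pair the *T. versicolor* identifiers with gene functions, sequences or positions, so the transcripts are called by identifier, no role is given to them, and the label of the biomass could not be checked against marker genes.

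The libraries held from 18301303 to 26514709 estimated counts, and libraries of a group had Pearson correlations of log2 CPM (counts scaled to a common library total) from 0.975 to 0.994 across transcripts. Glucose replicate 1 stood apart from the other glucose libraries, at 0.975 and 0.980, while all other pairs within a group were at 0.990 or above. Without glucose replicate 1 the rule chose 58 transcripts, including 35 of the 42. Low-melanin replicate 1 stood apart in its TPM. Transcripts jgi.p|Traver1|7139 and jgi.p|Traver1|7140, only 63 and 108 bases long, took 25.9% of all TPM there against 2.41% to 7.64% in the other 8 libraries, while they took 1.11% of its estimated counts. Since TPM sum to the same total in each library, the TPM of other transcripts are lowered in that library, and 91.8% of the 10122 transcripts that reached the level minimum of 6 on any carbon source were lowest there among the 3 low-melanin libraries. Among the 42 members, 36 were lowest in it. Without low-melanin replicate 1 the rule chose 54 transcripts, including all 42.

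The members spanned a wide range of levels. On low-melanin necromass their mean level ran from 9.24 to 6594 TPM with a median of 112 TPM. Medians were 43.5 TPM on glucose and 15.7 TPM on high-melanin necromass, where 17 members had a mean under 10 TPM. By comparison, the 10122 transcripts at or above the level minimum had medians of 18.9 TPM on glucose, 18.97 TPM on the low-melanin type and 21.2 TPM on the high-melanin type. On low-melanin necromass 22 members had a mean of at least 100 TPM, 16 lay between 20 and 100 TPM, and 4 were lower. Steps and ratios between carbon sources, here and below, were taken with the same addition to each group mean as in the rule. Gaps between single libraries use TPM without it. On that scale the ratio of low-melanin to high-melanin necromass, with the addition, had a median of 5.39 and ran from 2.37 to 38.5. It was at least 10 for 8 members. Without the addition the ratios are larger, mainly for members at low levels, and more members reach 10.

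**Figure D1:**
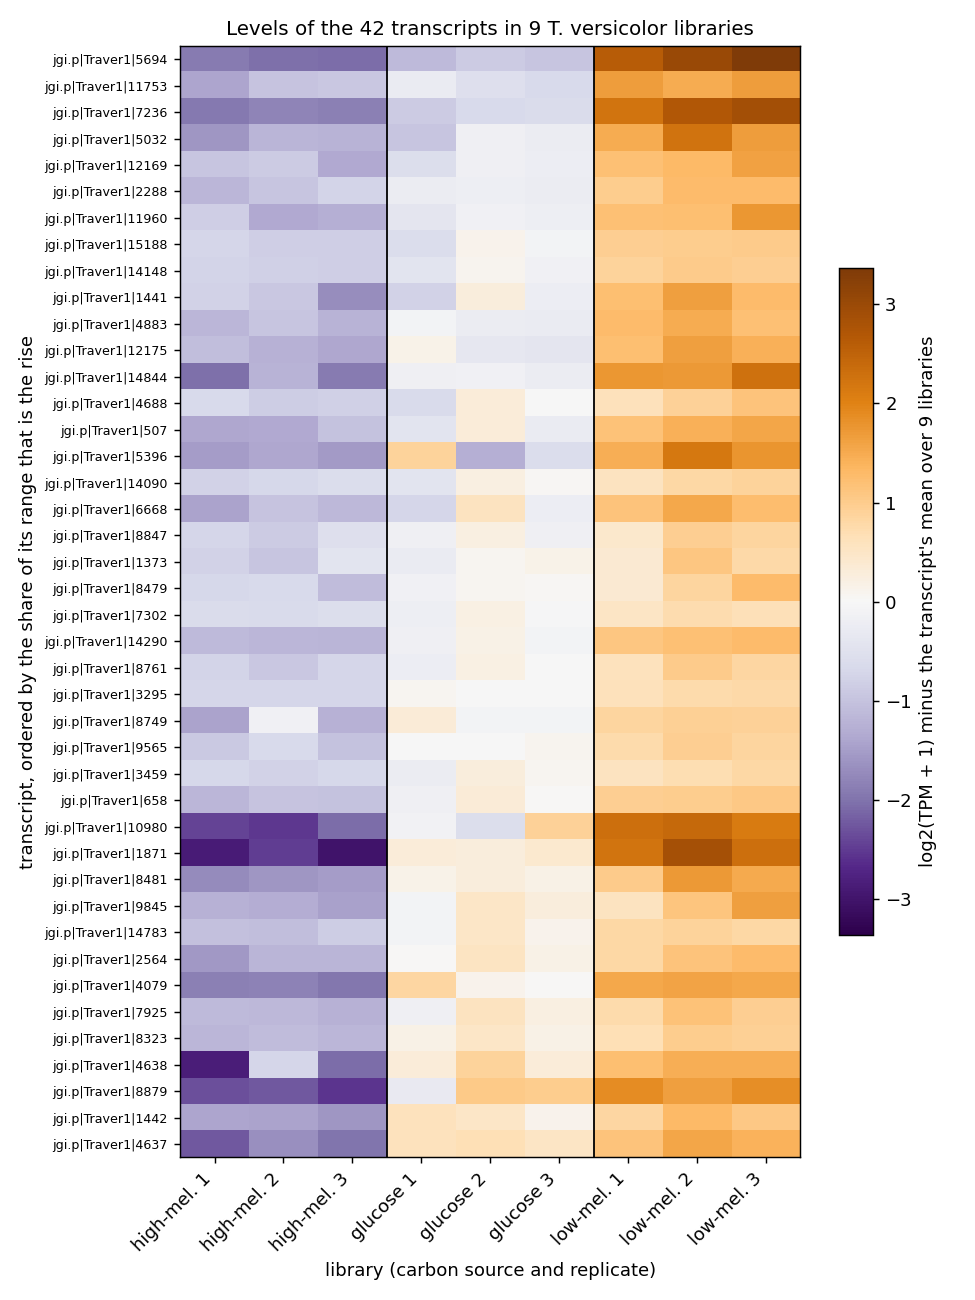
Each row is a member and each column a library, grouped as high-melanin necromass, glucose and low-melanin necromass; colour gives log2(TPM + 1) minus the member's mean over the 9 libraries. All rows run from purple to orange from left to right because the rule required it. The rows differ in where glucose lies, from near the high-melanin end at the top (jgi.p|Traver1|5694) to nearer the low-melanin end at the bottom (jgi.p|Traver1|4637).

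The most abundant member was jgi.p|Traver1|10980, with a coding length of 342 bases. It stood at 1242, 911 and 2546 TPM on glucose, 6629, 7215 and 5938 TPM on low-melanin necromass and 252, 232 and 323 TPM on high-melanin necromass. Its glucose libraries varied more than either necromass group, with replicate 3 well above the others, yet all 3 stayed below every low-melanin library and above every high-melanin library. Its mean was 6594 ± 639 TPM (SD, n = 3) on low-melanin necromass and 269 ± 47.6 TPM on high-melanin necromass, a ratio of 24.4. The transcript is about as long as the sequenced fragments, which the effective lengths put at 249 to 344 bases, and its effective length, the part of it where a fragment can start, was estimated at 94.6 to 115 bases on glucose, 123 to 138 on the low-melanin type and 119.5 to 129 on the high-melanin type. In CPM scaled by TMM (trimmed mean of M values, a scaling between libraries), which uses no length, it stood at 256, 214 and 589 on glucose, at 2335, 1828 and 1599 with low-melanin and at 62.8, 58.9 and 76.2 with high-melanin necromass, so the order of the groups did not rest on that estimate.

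Next in level came jgi.p|Traver1|6668, a coding sequence of 258 bases, at 338, 829 and 476 TPM on glucose, 1234, 1635 and 1333 TPM on low-melanin necromass and 208, 282 and 254 TPM on high-melanin necromass. Its glucose libraries spread more than its necromass libraries, and glucose replicate 2 came closest to the low-melanin level. jgi.p|Traver1|7925, of 1377 bases, was at 451, 751 and 587 TPM on glucose, 859, 1137 and 989 TPM on low-melanin necromass and 233, 230.1 and 212 TPM on high-melanin necromass. Here the step from glucose down to high-melanin necromass, 2.64-fold, was larger than the step up to low-melanin necromass, 1.67-fold. jgi.p|Traver1|9565, of 480 bases, gave 437, 439.6 and 471 TPM on glucose, 751, 861 and 796 TPM on low-melanin necromass and 234, 276 and 217 TPM on high-melanin necromass. It was among the steadier members, with a glucose mean of 449 ± 18.97 TPM (SD, n = 3).

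jgi.p|Traver1|14290, of 1296 bases, was measured at 239, 306 and 257 TPM on glucose, 582, 627 and 657 TPM on low-melanin necromass and 126, 119.5 and 118 TPM on high-melanin necromass. Its steps were alike, 2.32-fold up and 2.200-fold down from glucose. jgi.p|Traver1|8761, of 1101 bases, had 216, 289 and 250.4 TPM on glucose, 377, 505 and 448 TPM on low-melanin necromass and 148, 132 and 151 TPM on high-melanin necromass, and its steps of 1.76-fold and 1.75-fold were nearer the minimum of 1.5. The remaining members among the 8 with the highest low-melanin levels, jgi.p|Traver1|5694 and jgi.p|Traver1|7236, had most of their range in the step up.

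**Figure D2:**
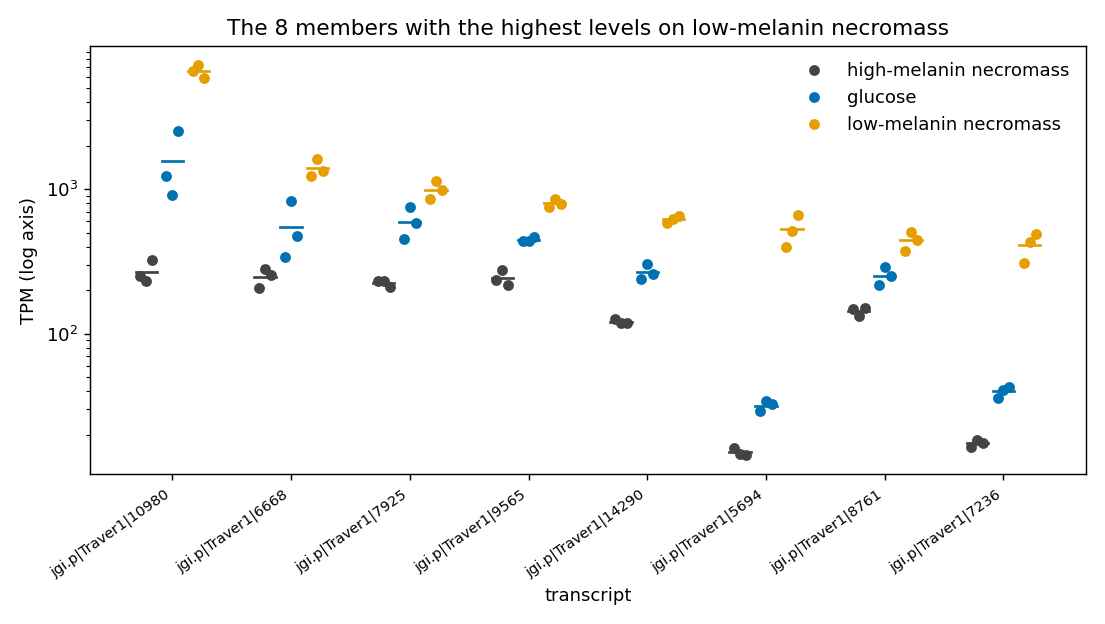
Points are single libraries and short lines are group means for the 8 members with the highest mean on low-melanin necromass, on a log axis of TPM. For jgi.p|Traver1|5694 and jgi.p|Traver1|7236 the glucose points sit much nearer the high-melanin than the low-melanin points, with means of 31.8 and 39.9 TPM, while the low-melanin points lie far above.

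These 2 transcripts had the steepest steps up from glucose. jgi.p|Traver1|5694, of 909 bases, was at 28.9, 34.1 and 32.3 TPM on glucose, 400.1, 518 and 668 TPM on low-melanin necromass and 16.2, 14.8 and 14.5 TPM on high-melanin necromass. The low-melanin level was 16.2 times the glucose level, and even the lowest low-melanin library exceeded the highest glucose library 11.7-fold, whereas the step down to high-melanin necromass was 2.03-fold. jgi.p|Traver1|7236, of 966 bases, was at 35.6, 41.03 and 43.1 TPM on glucose, 310.2, 433 and 491 TPM on low-melanin necromass and 16.5, 18.4 and 17.5 TPM on high-melanin necromass. Its steps were 10.1-fold and 2.22-fold. With the rule's addition to each group mean, no other member was above 5-fold in the step up. Without that addition, the step up of jgi.p|Traver1|5032 also exceeded 5-fold. Estimated counts of jgi.p|Traver1|7236 were off a whole number by up to 0.3, a mark of reads divided with similar transcripts. How many reads were divided, and so how uncertain its level is, cannot be read from that.

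The largest contrast between the necromass types belonged to jgi.p|Traver1|1871, of 345 bases, at 57.1, 56.4 and 61.5 TPM on glucose, 220.5, 338 and 233 TPM on low-melanin necromass and 5.37, 7.36 and 4.903 TPM on high-melanin necromass. It was high on low-melanin necromass, intermediate and steady on glucose and low on high-melanin necromass. With the rule's addition to each group mean, the ratio between the necromass types was 38.5. Its high-melanin libraries held only 31, 42 and 22 estimated counts. Its effective length was 95.8 to 117 bases on glucose, 125 to 140 on the low-melanin type and 121.5 to 131 on the high-melanin type. In TMM-scaled CPM it stood at 11.9, 13.5 and 14.5 on glucose, 78.9, 86.8 and 63.8 with low-melanin and 1.36, 1.90 and 1.18 with high-melanin necromass. The steps were 4.46-fold up and 8.63-fold down, and the groups stood far apart, the lowest low-melanin library standing 3.58-fold above the highest glucose library and the lowest glucose library 7.66-fold above the highest high-melanin library. jgi.p|Traver1|8879, of 987 bases, had 66.3, 169 and 162 TPM on glucose, 303, 256 and 299 TPM on low-melanin necromass and 15.3, 16.4 and 13.00 TPM on high-melanin necromass. Glucose replicate 1 was well below the other glucose libraries, but the step down of 8.38-fold was large beside a step up of 2.15-fold. In jgi.p|Traver1|4637, of 777 bases, the levels were 19.3, 20.1 and 18.01 TPM on glucose, 28.7, 38.5 and 34.7 TPM on low-melanin necromass and 1.84, 3.24 and 2.38 TPM on high-melanin necromass. Its step down of 5.78-fold made up the larger part of its range.

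Lower in level, jgi.p|Traver1|14844, of 285 bases, was at 18.2, 18.5 and 17.1 TPM on glucose, 71.7, 70.2 and 103 TPM on low-melanin necromass and 4.25, 8.33 and 4.78 TPM on high-melanin necromass. Its glucose libraries were close together, at 17.9 ± 0.748 TPM (SD, n = 3), and both necromass groups varied more for their level. On high-melanin necromass it rested on 17, 33 and 15 estimated counts. jgi.p|Traver1|4079, of 525 bases, was at 43.5, 26.2 and 24.02 TPM on glucose, 71.3, 73.9 and 71.9 TPM on low-melanin necromass and 5.89, 5.96 and 5.398 TPM on high-melanin necromass. Its low-melanin libraries were nearly equal, with a coefficient of variation (CV, the SD as a share of the mean) of 1.87%. Its counts were in part divided with similar transcripts, to an extent that is not known.

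How the 2 steps were balanced differed between members. The step up from glucose to low-melanin necromass was the larger one, on a log scale, in 24 members and the step down to high-melanin necromass in 18. The step up had a median of 2.15-fold and ran from 1.503 to 16.2, and the step down had a median of 2.05-fold and ran from 1.52 to 8.63. Both were at least 2-fold in 13 members and both under 2-fold in 11. A step up of at least 4-fold was seen in 7 members and a step down of at least 4-fold in 6, and only jgi.p|Traver1|10980 and jgi.p|Traver1|1871 had both.

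At one end, jgi.p|Traver1|5694, jgi.p|Traver1|11753 and jgi.p|Traver1|7236 had 79.7%, 77.5% and 74.4% of their log2 range between the necromass types in the step up. jgi.p|Traver1|11753, of 546 bases, was at 55.7, 45.9 and 41.6 TPM on glucose, 218, 189 and 217 TPM on low-melanin necromass and 24.6, 33.5 and 34.8 TPM on high-melanin necromass, so glucose lay just above high-melanin necromass. jgi.p|Traver1|5032, of 882 bases, was another of this kind, at 3.696, 7.06 and 6.63 TPM on glucose, 24.4, 42.6 and 27.97 TPM on low-melanin necromass and 1.999, 2.999 and 2.89 TPM on high-melanin necromass. At the other end, the step up was 23.9% of the range in jgi.p|Traver1|4637, 26.3% in jgi.p|Traver1|1442 and 26.5% in jgi.p|Traver1|8879. jgi.p|Traver1|1442, of 957 bases, was at 75.5, 69.7 and 54.02 TPM on glucose, 89.8, 124 and 105 TPM on low-melanin necromass and 18.2, 17.9 and 15.9 TPM on high-melanin necromass, with glucose much closer to low-melanin necromass.

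**Figure D3:**
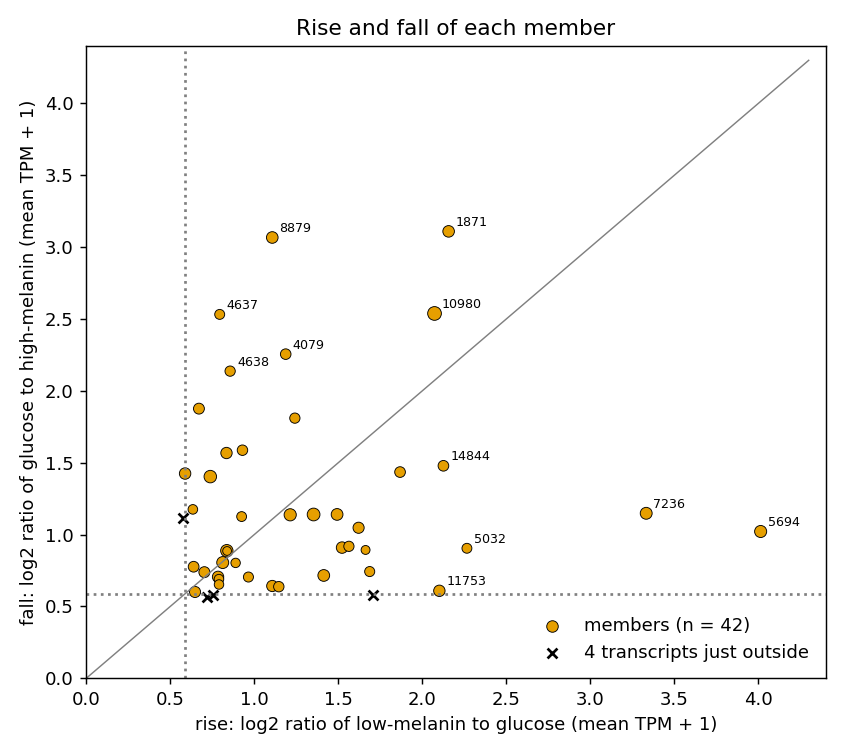
Each circle is a member, placed by the log2 ratio of low-melanin necromass to glucose (horizontal) and of glucose to high-melanin necromass (vertical), both from mean TPM plus 1, with larger circles for higher low-melanin levels; dotted lines mark the 1.5-fold minimum, the diagonal marks equal steps, labels give the last number of the identifier, and crosses are 4 transcripts just outside. Members spread along both axes, with jgi.p|Traver1|5694 and jgi.p|Traver1|7236 far right and jgi.p|Traver1|8879, jgi.p|Traver1|1871 and jgi.p|Traver1|10980 high up.

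The 17 members that no naming rule picked out had low-melanin means of 19.8 to 339 TPM, glucose means of 11.05 to 127 TPM and high-melanin means of 5.06 to 76.7 TPM. Their steps ran from 1.55-fold to 4.29-fold up and from 1.52-fold to 3.51-fold down. jgi.p|Traver1|2288, of 1014 bases, held 126, 129.6 and 124 TPM on glucose, 294, 362 and 359.6 TPM on low-melanin necromass and 65.8, 76.1 and 88.2 TPM on high-melanin necromass, with glucose libraries that barely differed. jgi.p|Traver1|507, of 1560 bases, was at 93.4, 158 and 104 TPM on glucose, 284, 342 and 379 TPM on low-melanin necromass and 48.5, 48.7 and 62.5 TPM on high-melanin necromass, and part of its counts was divided with similar transcripts. jgi.p|Traver1|3295, of 873 bases, was the steadiest on high-melanin necromass, at 42.3, 42.6 and 42.3 TPM, against 73.5, 70.6 and 70.1 TPM on glucose and 109, 119 and 122 TPM on low-melanin necromass. jgi.p|Traver1|5396, of 1005 bases, was the least steady on glucose, where its libraries stood at 42.4, 8.64 and 14.5 TPM between 7.24, 8.02 and 7.103 TPM on high-melanin and 63.6, 105 and 78.8 TPM on low-melanin necromass.

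Of the others in this set, jgi.p|Traver1|4883 was at 234 ± 24.4 TPM on low-melanin necromass, 80.9 ± 6.27 TPM on glucose and 42.6 ± 4.46 TPM on high-melanin necromass (SD, n = 3). jgi.p|Traver1|2564 had 192 ± 32.2, 108 ± 21.4 and 35.6 ± 5.38 TPM in the same order, with a larger step down than up. jgi.p|Traver1|12175 had 147 ± 21.04, 47.2 ± 10.5 and 22.3 ± 2.69 TPM, with the reverse balance. jgi.p|Traver1|8481 had the largest step down among them, at 20.2 ± 0.8700 TPM on glucose and 5.06 ± 0.4796 TPM on high-melanin necromass, below 49.2 ± 12.1 TPM on low-melanin necromass. jgi.p|Traver1|12169 was at 39.01 ± 5.92, 11.4 ± 1.77 and 6.43 ± 1.21 TPM, mostly through its step up. The remaining 7 that have not been described, jgi.p|Traver1|1373, jgi.p|Traver1|14148, jgi.p|Traver1|3459, jgi.p|Traver1|4688, jgi.p|Traver1|14783, jgi.p|Traver1|8847 and jgi.p|Traver1|14090, had steps of 1.55-fold to 2.15-fold up and 1.56-fold to 2.26-fold down.

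Some members met the rule narrowly. The smallest margins to its limits were those of jgi.p|Traver1|8749, jgi.p|Traver1|11960, jgi.p|Traver1|8323 and jgi.p|Traver1|7302. jgi.p|Traver1|8749, of 279 bases, was at 5.87, 4.14 and 4.17 TPM on glucose, 8.903, 9.49 and 9.31 TPM on low-melanin necromass and 1.04, 3.94 and 1.32 TPM on high-melanin necromass. High-melanin replicate 2 lay just under the lowest glucose library, and the transcript rested on 4 to 36 estimated counts per library. jgi.p|Traver1|11960, of 507 bases, at 2.31, 2.99 and 2.802 TPM on glucose, 9.08, 9.24 and 13.8 TPM on low-melanin necromass and 1.48, 0.702 and 0.8001 TPM on high-melanin necromass, had the second lowest low-melanin level, though its step up was 3.17-fold. Its high-melanin libraries held 17, 8 and 7 estimated counts. jgi.p|Traver1|8323, of 756 bases, at 136, 169.8 and 138 TPM on glucose, 192, 242 and 234 TPM on low-melanin necromass and 53.7, 56.1 and 53.7 TPM on high-melanin necromass, passed the step up at 1.503-fold. jgi.p|Traver1|7302, of 2001 bases, at 78.02, 102 and 86.5 TPM on glucose, 129, 149 and 141 TPM on low-melanin necromass and 58.1, 56.5 and 60.4 TPM on high-melanin necromass, had the smallest step down, 1.52-fold, and a step up of 1.57-fold.

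The separation of glucose from high-melanin necromass was narrowest in jgi.p|Traver1|1441, where the lowest glucose library stood at 10.1 TPM and the highest high-melanin library at 10.04 TPM. jgi.p|Traver1|4688, jgi.p|Traver1|8749 and jgi.p|Traver1|5396 also had gaps under 1.1-fold there, of 1.01-fold, 1.05-fold and 1.08-fold. On the other side, the gap between glucose and low-melanin necromass was under 1.1-fold in jgi.p|Traver1|9845 alone, at 1.06-fold. Both gaps were at least 1.5-fold in 14 members and at least 2-fold in 3, jgi.p|Traver1|10980, jgi.p|Traver1|1871 and jgi.p|Traver1|14844. These members were picked out after their values were seen. On high-melanin necromass jgi.p|Traver1|14844 rested on 17, 33 and 15 estimated counts. The rule required both gaps of every member, and no share over all transcripts was computed beside these numbers of members.

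Many transcripts lay just outside. With the level minimum and both gaps met, 75 transcripts had only 1 of the 2 steps at 1.5-fold, 58 of them short of the step down and 17 short of the step up. A further 8 had both steps and the level but overlapping groups, and none was left out by the level minimum alone. Closest to the limit was jgi.p|Traver1|5070, of 627 bases, at 1270.4, 1406 and 1187 TPM on glucose, 3933, 4348 and 4329.6 TPM on low-melanin necromass and 847, 882 and 854 TPM on high-melanin necromass, with a step down of 1.495-fold. By level it would have been the second of all members. jgi.p|Traver1|6110, at 627, 687 and 584 TPM on glucose, 837, 999 and 996 TPM on low-melanin necromass and 302, 288 and 285 TPM on high-melanin necromass, had a step up of 1.492-fold. jgi.p|Traver1|14324 and jgi.p|Traver1|10801 fell short in the step down, at 1.491-fold and 1.479-fold.

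Within groups, which the rule did not use beyond the gaps, the members varied by a median CV of 17.9% on glucose, of 14.3% on the low-melanin type and of 11.02% on the high-melanin type. Over the 10122 transcripts at or above the level minimum the median CV was 14.2%, 14.9% and 10.1%. On low-melanin necromass, CVs were largest in jgi.p|Traver1|9845 (36.7%), jgi.p|Traver1|8479 (32.1%), jgi.p|Traver1|5032 (30.5%) and jgi.p|Traver1|5694 (25.4%). jgi.p|Traver1|9845, of 687 bases, was at 25.6, 38.5 and 33.4 TPM on glucose, 41.01, 60.5 and 86.96 TPM on low-melanin necromass and 10.8, 10.4 and 9.28 TPM on high-melanin necromass, so its low-melanin libraries spanned more than its whole step from glucose. jgi.p|Traver1|8479, of 621 bases, was at 8.41, 9.94 and 9.76 TPM on glucose, 12.6, 17.8 and 24.2 TPM on low-melanin necromass and 5.39, 5.57 and 3.88 TPM on high-melanin necromass. The smallest CVs were those of jgi.p|Traver1|15188 (1.87%) and jgi.p|Traver1|4079 (1.87%), and jgi.p|Traver1|15188, of 1137 bases, was at 18.9, 31.8 and 27.1 TPM on glucose, 57.8, 58.2 and 59.9 TPM on low-melanin necromass and 17.2, 15.9 and 15.9 TPM on high-melanin necromass.

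The members leaned the same way among the glucose libraries. Glucose replicate 2 was the highest of the 3 in 29 of 42 members and glucose replicate 1 the lowest in 28. Of the 10122 transcripts at or above the level minimum, 37.7% were highest in replicate 2 and 38.5% lowest in replicate 1. The members share these libraries, so the counts describe the libraries and are not independent observations. After TMM scaling of the TPM, glucose replicate 2 was highest in 30 members, while low-melanin replicate 1 was lowest in 7 members and highest in 19. The median CV of the members on low-melanin necromass was then 11.2%, and 10.98% when TPM were recomputed without the 2 short transcripts.

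Added together, the 42 transcripts held 1.56% ± 0.127 of all TPM on low-melanin necromass, 0.541% ± 0.0893 on glucose and 0.201% ± 0.00713 on high-melanin necromass (SD, n = 3). By library the sums were 1.46%, 1.70% and 1.53% on low-melanin necromass, 0.450%, 0.545% and 0.628% on glucose, and 0.193%, 0.204% and 0.206% on high-melanin necromass. A single transcript, jgi.p|Traver1|10980, made up 38.8% to 45.6% of the sum in the low-melanin libraries, 27.6%, 16.7% and 40.5% in the glucose libraries and 11.4% to 15.7% in the high-melanin libraries. The shares of the sum held by this transcript overlapped between glucose and low-melanin necromass, since glucose replicate 3 lay above low-melanin replicate 3. Without jgi.p|Traver1|10980 the sums were 0.903% ± 0.0985, 0.384% ± 0.0648 and 0.174% ± 0.00669 in the order of low-melanin necromass, glucose and high-melanin necromass. As shares of estimated counts, with all 42, they were 1.31% ± 0.0360, 0.611% ± 0.0776 and 0.251% ± 0.0103.

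**Figure D4:**
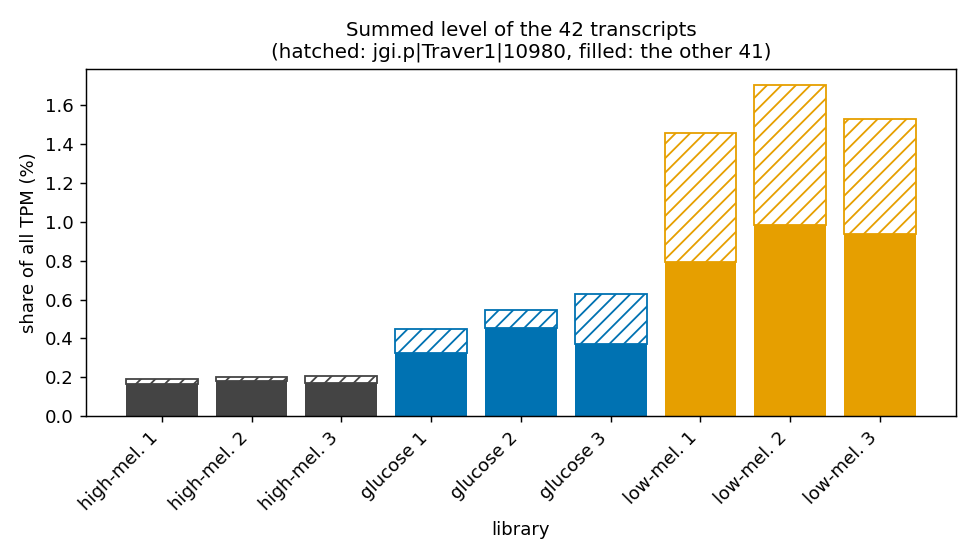
Bars give the share of all TPM held by the 42 transcripts in each library, with the part of jgi.p|Traver1|10980 hatched. The sum lies between 0.193% and 0.206% in the high-melanin libraries, between 0.450% and 0.628% on glucose and between 1.46% and 1.70% on low-melanin necromass, and the hatched part is larger in every low-melanin library than in any other library.

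Length was not part of the rule. The members had a median length of 878 bases, with a middle range from 512 to 1128 bases, against 1098 bases (648 to 1680) over the transcripts at or above the level minimum. Under 500 bases were 10 of 42 members, 23.8%, against 17.5% of those transcripts. All members have lengths that are multiples of 3, as do 99.6% of the *T. versicolor* models, so these are coding lengths. The shortest was jgi.p|Traver1|1441, of 207 bases, at 10.1, 22.1 and 15.3 TPM on glucose, 43.1, 57.9 and 45.1 TPM on low-melanin necromass and 10.04, 8.86 and 4.82 TPM on high-melanin necromass, resting on 8 to 117 estimated counts per library. The longest was jgi.p|Traver1|658, of 3027 bases, at 12.9, 18.6 and 14.7 TPM on glucose, 29.1, 29.6 and 31.4 TPM on low-melanin necromass and 5.901, 6.898 and 6.71 TPM on high-melanin necromass. Counts divided between similar transcripts, which means off a whole number by more than 0.01 somewhere, were found in 3 members, jgi.p|Traver1|7236, jgi.p|Traver1|507 and jgi.p|Traver1|4079, or 7.14%, against 5.24% of the transcripts at or above the level minimum. The levels of the other 39 rest on whole counts.

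Identifiers of *T. versicolor* run from 1 to 15606, and whether this order follows the genome is not stated in the labels or files. Of the 42 members, 4 carried a number next to that of another member. jgi.p|Traver1|1441 and jgi.p|Traver1|1442 were one such pair and jgi.p|Traver1|4637 and jgi.p|Traver1|4638 the other. jgi.p|Traver1|4638, of 264 bases, was at 23.3, 34.9 and 23.2 TPM on glucose, 44.4, 52.9 and 52.6 TPM on low-melanin necromass and 1.73, 10.8 and 3.69 TPM on high-melanin necromass, and its high-melanin libraries rested on 6, 37 and 10 estimated counts. In both jgi.p|Traver1|4637 and jgi.p|Traver1|4638 the step down, 5.78-fold and 4.399-fold, exceeded the step up, 1.73-fold and 1.81-fold. jgi.p|Traver1|8479 and jgi.p|Traver1|8481 were separated by jgi.p|Traver1|8480, which is no member and had means of 27.1 TPM on glucose, 42.9 TPM on low-melanin and 29.7 TPM on high-melanin necromass. Altogether 79 transcripts that are no members carried a number next to a member's, of which 14 had the step up and 21 the step down at 1.5-fold. These counts asked for the step alone, without gaps or level minimum. No share over all transcripts was computed beside them, so nothing is read from them.

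The same rule with the necromass types exchanged chose 213 transcripts, higher on high-melanin and lower on low-melanin necromass than on glucose. They had medians of 16.0 TPM on glucose, 38.1 TPM on high-melanin and 6.08 TPM on low-melanin necromass, and in sum they held 6.02% ± 0.344 of all TPM on high-melanin necromass (SD, n = 3), 1.37% ± 0.173 on glucose and 0.469% ± 0.0877 on low-melanin necromass. Their median length was 1095 bases, and 10.8% were under 500 bases. The difference in number between the 2 rules moved with the scale. With TPM rescaled by TMM factors the exchanged rule chose 193 transcripts and the members' rule 55. With TMM-scaled CPM the counts were 209 and 75. Transcripts higher than glucose on low-melanin necromass by the same step, with glucose and high-melanin necromass within 1.5-fold, numbered 819, with a median length of 1440 bases and 10.99% under 500 bases. Transcripts lower than glucose on high-melanin necromass, with glucose and low-melanin necromass within 1.5-fold, numbered 497, with a median length of 906 bases and 20.1% under 500 bases. In median length the members were nearer to the transcripts lower on high-melanin necromass only than to those higher on low-melanin necromass only. No test was made of these differences, since transcripts are not replicates. All these classes were chosen by TPM, so effective length enters their choice too.

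A count model, edgeR's quasi-likelihood test on estimated counts scaled by TMM and fitted over all 13340 transcripts that passed a filter on low counts, gave the same directions. All 42 members passed the filter. On low-melanin necromass against glucose, 42 of 42 were called higher at an adjusted p under 0.05, where 30.4% of all transcripts tested were called higher. On high-melanin necromass against glucose, 41 of 42 were called lower, where 27.7% of all were. Between the necromass types, 42 of 42 were called lower on the high-melanin type, where 27.8% of all were. These contrasts chose the members, so nothing is read from the counts. The comparisons also share libraries. Called in all 3 comparisons in these directions were 298 transcripts, 2.23% of those tested, and 41 of them were members. At least 1.5-fold in both steps of the count model were 99 of the 298, of which 40 were members.

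Median log2 fold changes of the members in this model were 1.31 on low-melanin necromass against glucose, -1.13 on high-melanin necromass against glucose and -2.73 between high-melanin and low-melanin necromass, against -0.04, -0.01 and -0.01 over all transcripts tested. jgi.p|Traver1|10980 had log2 fold changes of 2.44 ± 0.36, -2.42 ± 0.36 and -4.86 ± 0.40 (SE) in the same order. For jgi.p|Traver1|5694 they were 4.22 ± 0.15, -1.08 ± 0.14 and -5.30 ± 0.16, and for jgi.p|Traver1|1871 2.52 ± 0.16, -3.15 ± 0.19 and -5.68 ± 0.19. Across the 42 members the log2 fold change on high-melanin necromass against glucose ran from -3.17 (jgi.p|Traver1|8879) to -0.54 (jgi.p|Traver1|11753). The one not called there was jgi.p|Traver1|8749, at -1.02 ± 0.44, and it was called without high-melanin replicate 2, at -1.90, and under 4 further alternatives. jgi.p|Traver1|1441 lost its call there without glucose replicate 2 or high-melanin replicate 3, at -0.75 and -0.81. jgi.p|Traver1|11753 lost its call without high-melanin replicate 1, at -0.41, and jgi.p|Traver1|5396 under 10 of the 18 alternatives, at log2 fold changes from -1.66 to -1.24. No member changed sign in any of the 3 comparisons under the 18 alternatives to this fit. The rule had required separated groups in these same libraries, so a change of sign was hardly possible and nothing is read from this.

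Leaving out each library in turn showed how far the choice rested on single libraries. The rule then chose 40 to 58 transcripts, with 35 to 42 of the 42 among them. The left-out library kept the order that the other 8 had set for all transcripts chosen without glucose replicate 3 (48 of 48), low-melanin replicate 2 (40 of 40) and low-melanin replicate 3 (41 of 41). It kept the order for 45 of 58 without glucose replicate 1, 42 of 48 without glucose replicate 2 and 47 of 54 without low-melanin replicate 1, the library whose TPM are lowered. The full counts for low-melanin replicates 2 and 3 were largely set in advance. Low-melanin replicate 1 stayed among the choosing libraries and was the lowest of its group in 91.8% of transcripts at or above the level minimum. Nothing is read from those 2 counts. For the high-melanin libraries the counts were 44 of 48, 43 of 46 and 45 of 50. The left-out library had no part in choosing these transcripts, but it may be a repeat of the same culture as the others. Glucose lies between the necromass groups in this order, so its counts are not comparable with theirs. No share over all transcripts was computed beside these counts, which are a description.

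**Figure D5:**
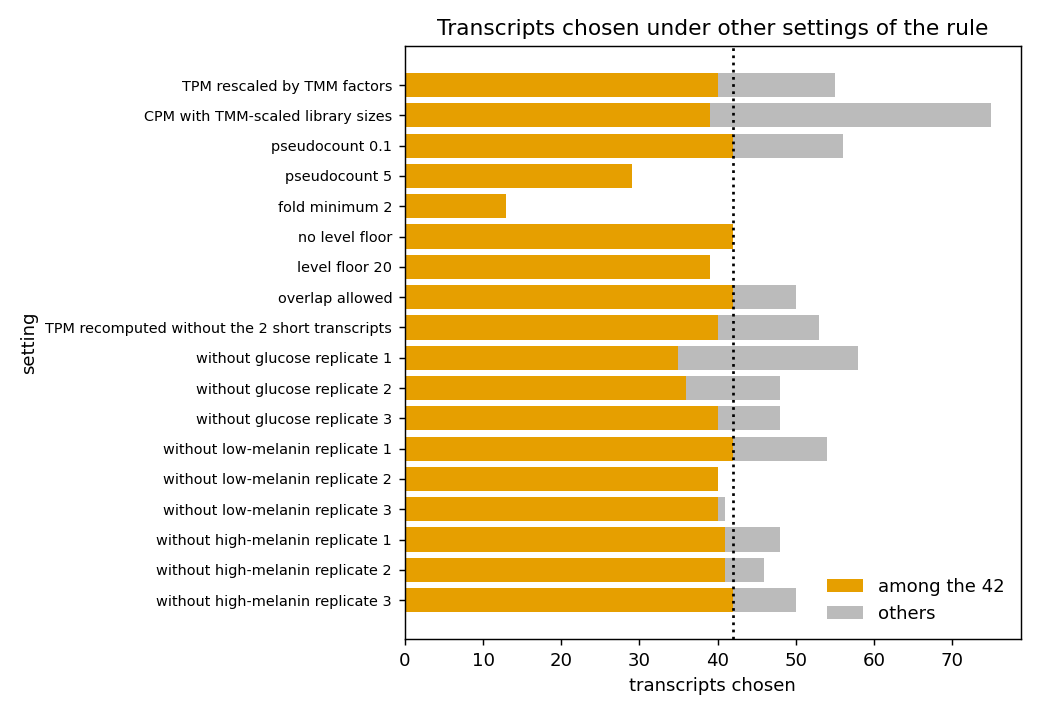
Bars give the number of transcripts chosen when 1 setting of the rule or 1 library is changed, with those among the 42 in orange and others in grey; the dotted line is at 42. Counts run from 13 with a minimum of 2-fold to 75 with CPM in place of TPM, where 39 of the 42 are chosen.

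The choice also moved with the scale. When TPM were rescaled by TMM factors, 55 transcripts met the rule, 40 of them among the 42, and jgi.p|Traver1|5070 and jgi.p|Traver1|6110 joined. When TPM were recomputed without the 2 short transcripts that stand out in low-melanin replicate 1, it chose 53, again with 40 of the 42. With TMM-scaled CPM in place of TPM it chose 75, of which 39 were among the 42.

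The pattern of a transcript was also compared with the mean pattern of the members, taken as the average of their standardised log2(TPM + 1) over the 9 libraries. Among transcripts outside the rule and at or above the level minimum, those most like it were jgi.p|Traver1|7430 (Pearson r = 0.982), jgi.p|Traver1|1285 (r = 0.981), jgi.p|Traver1|1299 (r = 0.980) and jgi.p|Traver1|3558 (r = 0.979). These coefficients are descriptions over 9 libraries in 3 groups, and all transcripts share the libraries. All 4 had the same order of groups, with at least 1 step under 1.5-fold. jgi.p|Traver1|1285, of 837 bases, was at 177, 216 and 198 TPM on glucose, 226, 259.7 and 254 TPM on low-melanin necromass and 136, 137 and 140.3 TPM on high-melanin necromass. jgi.p|Traver1|1299, of 1272 bases, was at 42.2, 56.6 and 49.99 TPM on glucose, 68.4, 81.4 and 85.9 TPM on low-melanin necromass and 36.7, 33.5 and 36.1 TPM on high-melanin necromass. Among the members themselves the coefficient ran from 0.891 in jgi.p|Traver1|5396 to 0.998 in jgi.p|Traver1|14290.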

How the data were processed

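TRIzol and a PureLink kit served for RNA extraction and a NEBNext Ultra II kit for the libraries, per the labels' protocols. The tools named are kallisto 0.51.1 and DESeq2 1.48.2, per the submitters' processing notes. Transcript set, build and strandedness: not given in the sources used here. The authors deposited estimated counts, TPM, lengths and effective lengths per transcript for each library, and only *T. versicolor* libraries were used.

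The members were found from the deposited TPM values. For the count model, the deposited estimated counts were rounded to whole numbers, filtered with filterByExpr, scaled with TMM and fitted over all 9 libraries with carbon source as the only term, in edgeR 4.0.16 (R 4.3.3, glmQLFit and glmQLFTest, robust), with Benjamini-Hochberg adjustment over 13340 transcripts and a threshold of 0.05. Standard errors were derived from each fold change and its F statistic. Alternatives included DESeq2 1.42.0 and limma 3.58.1. Total estimated counts were 18301303 to 26514709 per library, so counting error matters mainly for the shortest and lowest members. Chi-square per degree of freedom between libraries of a group was at least 17.4, so none was a duplicate within sampling noise.

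The members, lists and rules were chosen with earlier results of these data known. Members named are the 8 highest on low-melanin necromass, the 8 with the largest ratio between necromass types, the 4 with the smallest margin, those with the largest (4) and smallest (2) CV, the shortest and longest, and those with adjacent numbers; others named were added after their values were seen. Outside the rule, the 4 closest to a fold limit and the 4 most correlated were named. Lists by function could not be made, since nothing pairs the identifiers with functions.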

Additional observations from a re-analysis of the deposited data

How the results depend on the processing

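The numbers of members called in each comparison ran from 39 to 42 over the alternatives, and all 42 stayed called on low-melanin necromass against glucose and between the necromass types. Over all transcripts tested, 2699 to 4192 were called higher on low-melanin necromass against glucose. Called lower were 3185 to 4677 on high-melanin necromass against glucose and 2702 to 4166 on high-melanin against low-melanin necromass. These contrasts chose the members, so their calls could hardly move and nothing is read from them. The count by the rule was 75 with TMM-scaled CPM and 13 with a fold minimum of 2, and 40 to 58 when 1 library was left out. A pseudocount of 0.1 gave 56, of 5 gave 29, a level minimum of 20 gave 39, and overlap allowed gave 50. For the rule with necromass types exchanged, a pseudocount of 5 gave 129 and a fold minimum of 2 gave 83 in place of 213, and leaving out 1 library gave 193 to 253. The median log2 fold change of the members on low-melanin necromass against glucose was 1.04 scaled to library size only and 1.07 scaled to the upper quartile, as the median of all transcripts moved to -0.32 and -0.28, and 1.15 to 1.45 with 1 library left out. On high-melanin necromass against glucose it was -1.27 with upper-quartile scaling, where all transcripts had a median of -0.16, and -1.28 to -1.04 with 1 library left out. Between the necromass types it was -2.55 scaled to library size only (0.17 over all transcripts). The share of called transcripts that were higher fell from 48.4% with TMM to 30.8% by library size alone on low-melanin necromass against glucose, and was 32.6% with upper-quartile scaling; on high-melanin necromass against glucose it was 49.2%, 40.8% and 36.7%, and between the types 48.6%, 62.8% and 55.8%. The members' share of TPM without the top transcript was 0.384% on glucose, 0.903% with low-melanin and 0.174% with high-melanin necromass, the top one being jgi.p|Traver1|10980. With all 42 included, their share of counts was 1.31% with low-melanin and 0.251% with high-melanin necromass, and their share of TPM recomputed without the 2 short transcripts, an alternative chosen after seeing the data, was 1.81% and 0.211%. The cause of these moves was not tested, apart from the shifts in scaling given here.

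No pairing by replicate number was seen: deviations of same-numbered libraries from their group means correlated from -0.150 to 0.034 in 9 pairs. Between libraries of different number they correlated from -0.062 to 0.136 in 18 pairs, of which 2 were over 0.1. With the replicate number as a block, 40 members were called in all 3 comparisons in place of 41, and 8094, 6969 and 6852 transcripts were called in place of 8380, 7273 and 7215 (low-melanin against glucose, high-melanin against glucose, high-melanin against low-melanin). Depth limits jgi.p|Traver1|8749, jgi.p|Traver1|11960, jgi.p|Traver1|1441 and jgi.p|Traver1|4638, which rest on few counts on high-melanin necromass.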
